A study of Sus scrofa with 6 samples.

Results

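The report describes 7 genes. The tropomyosins TPM1 and TPM2, smooth muscle actin ACTA2 and transgelin TAGLN belong to the contractile cytoskeleton, and the delta-sarcoglycan gene SGCD to the muscle cell membrane. The LIM-domain gene LMCD1 and SH3BGR complete the 7 genes. Every probe set whose platform annotation gave exactly 1 gene symbol, and that symbol one of these, was taken, which gave 13 probe sets out of 10069 with 1 symbol and 7 genes out of 6765. TPM1 had 3 probe sets, TPM2 had 4, LMCD1 had 2 and the other genes had 1 each. The genes were gathered with their differences on these same arrays already known, so their differences between the pressures are described below and are not tested.

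The leaflets of the aortic valve hold interstitial cells in a collagen and elastin matrix. In the healthy adult valve most of these cells resemble fibroblasts. When activated they become myofibroblasts, which assemble actin stress fibres and are recognised by smooth muscle actin. Tropomyosins are coiled-coil dimers that lie along the actin filament and control the access of myosin and other actin-binding proteins. Sarcoglycans belong to the dystrophin complex, which ties the cytoskeleton of muscle cells to the matrix outside.

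Leaflets came from adult female pigs. Collagenase had been used to remove their endothelium, and they were kept overnight in DMEM with 10% fetal bovine serum. They were then put under cyclic pressure at 1 Hz for 24 h in the same medium inside a bioreactor. The normotensive group saw a pressure cycle of 0 to 80 mmHg and the hypertensive group a cycle of 0 to 120 mmHg, with 3 samples, each on its own array, per group. The comparison asks which transcripts differ between leaflets at raised and at normal diastolic pressure. The labels call the samples biological replicates without saying whether they came from separate animals, so the spread between them may hold less than the spread between pigs.

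Values are MAS5 signals on a linear scale, group levels are geometric means, and differences are on the log2 scale, hypertensive minus normotensive, with the standard error (SE) of a fit over all probe sets. The 6 arrays had been scaled to a common level, with a 2% trimmed mean between 500.11 and 500.131. Probe sets entered the tests when their mean log2 signal was at or above the 40th percentile, a signal of 48.5, called the filter level here. Over kept probe sets, hypertensive replicate 2 correlated with the normotensive arrays at 0.950 on average, replicate 3 at 0.895 and replicate 1 at 0.817. Of 14399 probe sets tested with limma, 0 passed at an adjusted p of 0.05 (Benjamini-Hochberg), while an unadjusted p under 0.05 was found for 2436. Of the markers of valve interstitial cells, the proteoglycan decorin (DCN) was at 12913, the intermediate filament gene vimentin (VIM) at 23586 and the collagen gene COL1A2 at 357 under normotensive pressure. Of 12 striated muscle markers with a probe set, 11 lay below the filter level in the mean over the 6 arrays, among them MYH7, TNNT2, TNNI3, MYL2 and CKM.

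Of the 13 probe sets, 10 had a lower and 3 a higher mean at hypertensive pressure, where 52.7% of all kept probe sets had a lower mean. In 7 of them, from TPM1, TPM2, SGCD, LMCD1 and SH3BGR, all 3 hypertensive arrays lay below all 3 normotensive arrays. In the other 6 the groups overlapped, and these included ACTA2 and TAGLN. Of the 13, 11 passed the filter on low signal, and among those 11 the groups lay apart in the lower direction in 6. That pattern was found in 12.0% of all kept probe sets, and since the genes were chosen from this comparison the share among them carries no separate weight. With limma 0 of the 11 passed the adjusted threshold (0.00% of all kept probe sets did) and 6 had an unadjusted p under 0.05 (16.9% of all). In bulk tissue, fewer cells of a type and less RNA per cell cannot be told apart, and this holds for every value given here.

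**Figure D1:**
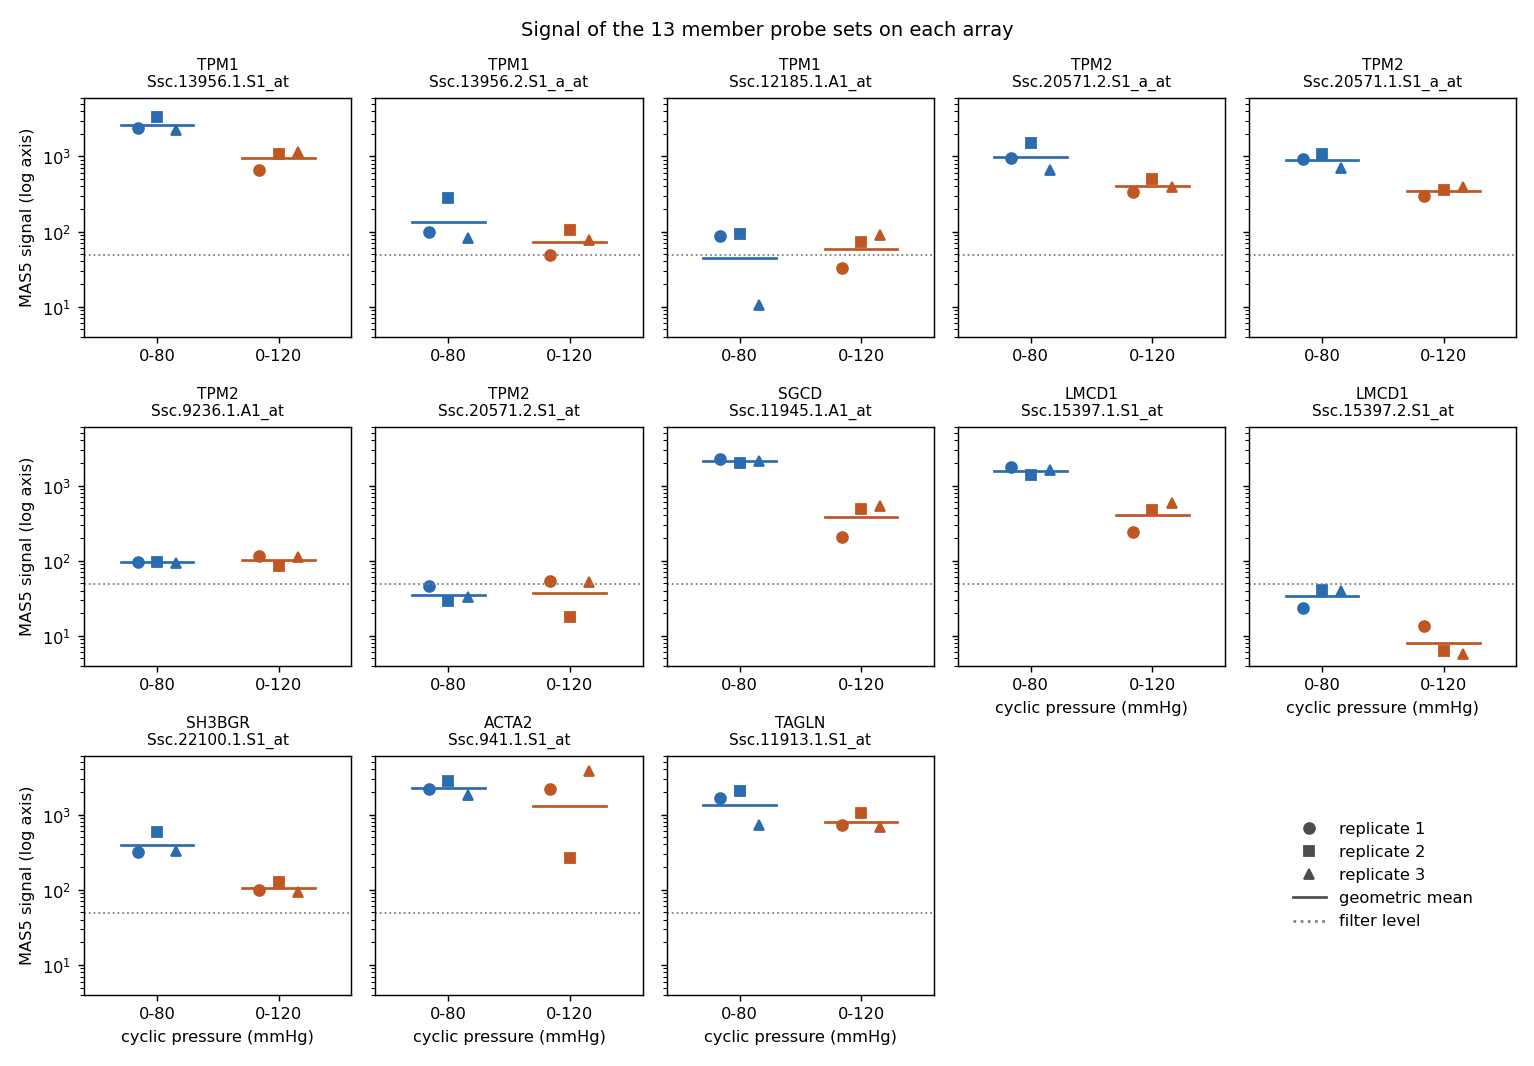
MAS5 signal (log axis) of the 13 probe sets on each array at 0-80 mmHg (blue) and 0-120 mmHg (orange), with 3 arrays per group, the geometric mean of each group as a line and the filter level of 48.5 as a dotted line. The groups lie apart in 7 panels, while ACTA2 has 1 hypertensive array at 267 and the other two within or above the normotensive range.

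SGCD, the delta subunit of the sarcoglycan complex, had the largest difference of the 13 probe sets. Its signals on normotensive replicates 1, 2 and 3 were 2243, 1990 and 2139, and on the hypertensive replicates 208, 484 and 539. The normotensive arrays lay close together and every hypertensive array lay far below them, with replicate 1 the lowest. The geometric mean went from 2122 to 379, which is 5.60-fold lower, with a log2 difference of -2.49 (SE 0.38). The spread of the hypertensive arrays was wider than that of the normotensive ones, with SDs of 0.75 and 0.09 on the log2 scale (n = 3 each). Over all kept probe sets the hypertensive arrays spread more as well, with median SDs of 0.49 and 0.23. Without hypertensive replicate 1 SGCD was 4.16-fold lower.

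LMCD1 encodes a protein with LIM domains that is known to bind GATA6 and to restrain its activity on target genes. It was read by 2 probe sets that the annotation ties to the same transcript. The first, Ssc.15397.1.S1_at, gave 1745, 1366 and 1596 at normotensive pressure and 244, 467 and 586 at hypertensive pressure. Hypertensive replicate 1 was again the lowest and replicate 3 the highest of the group, an order shared with SGCD. The mean was 3.85-fold lower, with a log2 difference of -1.94 (SE 0.36). The further LMCD1 probe set lay below the filter level on all 6 arrays, at 23.5, 41.0 and 39.1 and then at 13.7, 6.36 and 5.79. It differed in the same direction by -2.08 on the log2 scale (SE 0.63, from the fit without a filter). Since all of its signals lay below the filter level, the size of that difference is uncertain, and it shrank to -0.44 when 64 was added to each signal before taking logs.

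SH3BGR, which encodes a protein rich in glutamate that is abundant in heart and skeletal muscle, gave 314, 587 and 325 at normotensive pressure and 97.9, 128 and 92.9 at hypertensive pressure. The hypertensive arrays lay within a narrow range, and on this gene replicate 1 did not stand below the others. The mean was 3.71-fold lower, with a log2 difference of -1.89 (SE 0.34). The difference was -1.60 without normotensive replicate 2, the highest array.

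TPM1 encodes alpha-tropomyosin. Its probe set Ssc.13956.1.S1_at gave 2397, 3367 and 2263 at normotensive pressure and 669, 1078 and 1145 at hypertensive pressure. The groups lay apart, and the mean was 2.81-fold lower with a log2 difference of -1.49 (SE 0.30). Ssc.13956.2.S1_a_at, from the same transcript cluster, gave 99.8, 279 and 82.9 at normotensive pressure and 48.0, 104 and 76.3 at hypertensive pressure. Its mean was lower too (log2 -0.87, SE 0.52), but the groups overlapped. Hypertensive replicate 2, at 104, lay above normotensive replicates 1 and 3, while normotensive replicate 2 lay above all other arrays. The TPM1 probe set of another cluster, Ssc.12185.1.A1_at, gave 87.6, 93.2 and 10.4 at normotensive pressure and 32.6, 72.4 and 88.8 at hypertensive pressure. Its difference was 0.43 (SE 0.85) and turned to -0.61 without normotensive replicate 3, the array at 10.4, so that its direction rested on 1 array, which lay below the filter level.

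TPM2 encodes beta-tropomyosin. Its probe set Ssc.20571.2.S1_a_at gave 963, 1529 and 651 at normotensive pressure and 333, 504 and 396 at hypertensive pressure. Ssc.20571.1.S1_a_at gave 923, 1086 and 692 at normotensive pressure and 295, 355 and 389 at hypertensive pressure. In both of them the groups lay apart, with log2 differences of -1.28 (SE 0.37) and -1.36 (SE 0.29), which are 2.43-fold and 2.57-fold lower. The remaining 2 probe sets of TPM2 showed no such difference. Ssc.9236.1.A1_at stayed within 92.6 to 96.9 on the normotensive arrays and 85.3 to 115 on the hypertensive arrays, with a difference of 0.11 (SE 0.30). Ssc.20571.2.S1_at gave 45.8, 28.8 and 33.1 and then 53.6, 17.9 and 51.7, most of them below the filter level, with a difference of 0.06 (SE 0.58, from the fit without a filter). This last probe set and Ssc.20571.2.S1_a_at are tied by the annotation to the same expressed sequence tag. The sign of the difference of Ssc.20571.2.S1_at is not settled, since it was -0.08, -0.21 and -0.18 without normotensive replicate 2, hypertensive replicate 1 and hypertensive replicate 3.

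The 3 tropomyosin probe sets with groups apart had normotensive geometric means of 885, 986 and 2633, while the 4 whose groups overlapped had geometric means of 132 or less in each group. The mean over all probe sets of a gene, in place of the brightest, reduced the difference from -1.49 to -0.64 for TPM1 and from -1.28 to -0.62 for TPM2. For LMCD1 it was -2.01 in place of -1.94. Which parts of the transcripts the probe sets read was not analysed here.

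**Figure D2:**
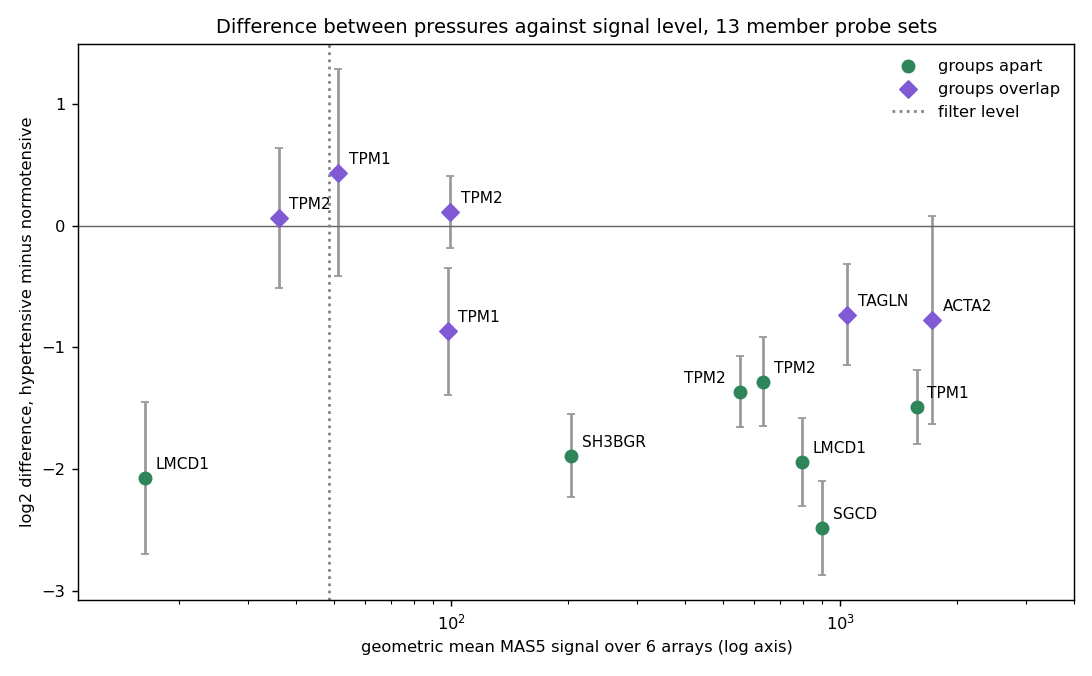
Log2 difference between pressures (vertical axis, bars are the SE of the fit) against the geometric mean MAS5 signal over the 6 arrays (log axis) for the 13 probe sets. The 3 probe sets with a higher hypertensive mean, 1 of TPM1 and 2 of TPM2, lie at a low signal near the filter level of 48.5 or not far above it.

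ACTA2, the smooth muscle actin by which myofibroblasts are recognised, differed from the genes above. Its signals were 2211, 2801 and 1840 at normotensive pressure and 2217, 267 and 3845 on hypertensive replicates 1, 2 and 3. Hypertensive replicate 1 lay inside the normotensive range, replicate 3 above it, and replicate 2 far below every other array. The group means of 2250 and 1315 gave a log2 difference of -0.77 (SE 0.85), with a log2 SD of 2.03 among the hypertensive arrays against 0.30 among the normotensive arrays. Without hypertensive replicate 2 the difference was 0.38, and without replicate 3 it was -1.55, so the direction for ACTA2 rested on 1 array. The same replicate 2 was, over all kept probe sets, the hypertensive array most like the normotensive ones. The next lowest array was 6.90 times as high as replicate 2. A gap that large below the other 5 arrays was found on replicate 2 in 5 of 14399 kept probe sets (0.0347%), ACTA2 included, a count made after the value was seen.

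TAGLN, which encodes transgelin, an actin-bundling protein of smooth muscle, did not share that pattern. It gave 1641, 2044 and 720 at normotensive pressure and 726, 1040 and 693 at hypertensive pressure. Hypertensive replicate 2 was the highest of its group, where for ACTA2 it was the lowest, and the groups overlapped through normotensive replicate 3. The log2 difference was -0.73 (SE 0.42), which is 1.66-fold lower. Without normotensive replicate 3 it was -1.18, and without replicate 2 it was -0.43.

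The arrays within a group followed partly shared orders. Normotensive replicate 2 was the highest of its group for the TPM1 and TPM2 probe sets with groups apart, for SH3BGR, for ACTA2 and for TAGLN, while SGCD and the LMCD1 probe set Ssc.15397.1.S1_at were lowest there among the normotensive arrays. Over the 11 kept probe sets, the median difference from the normotensive mean was -1.57, -1.29 and -1.19 on hypertensive replicates 1, 2 and 3 and lay between -0.29 and 0.35 on the normotensive arrays. Of the 6 kept probe sets with groups apart, hypertensive replicate 2 was the highest of its group in 2. Across all kept probe sets whose groups lay apart in the lower direction it was the highest in 69.5%. Signals of 3′ over 5′ control probe sets, read as a sign of RNA quality, had overlapping groups. For GAPDH this ratio was 2.11 to 7.52 at normotensive and 2.91 to 6.04 at hypertensive pressure, and for actin it was 41.1 to 109 and 52.5 to 81.7. The 3′ signal was thus well above the 5′ signal on every array. Both ratios were lowest on normotensive replicate 2 and highest on normotensive replicate 3. Replicate 3 was the lowest normotensive array for the TPM1 and TPM2 probe sets with groups apart, ACTA2 and TAGLN, but not for SH3BGR, SGCD or LMCD1. The part of RNA quality in these orders was not tested.

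**Figure D3:**
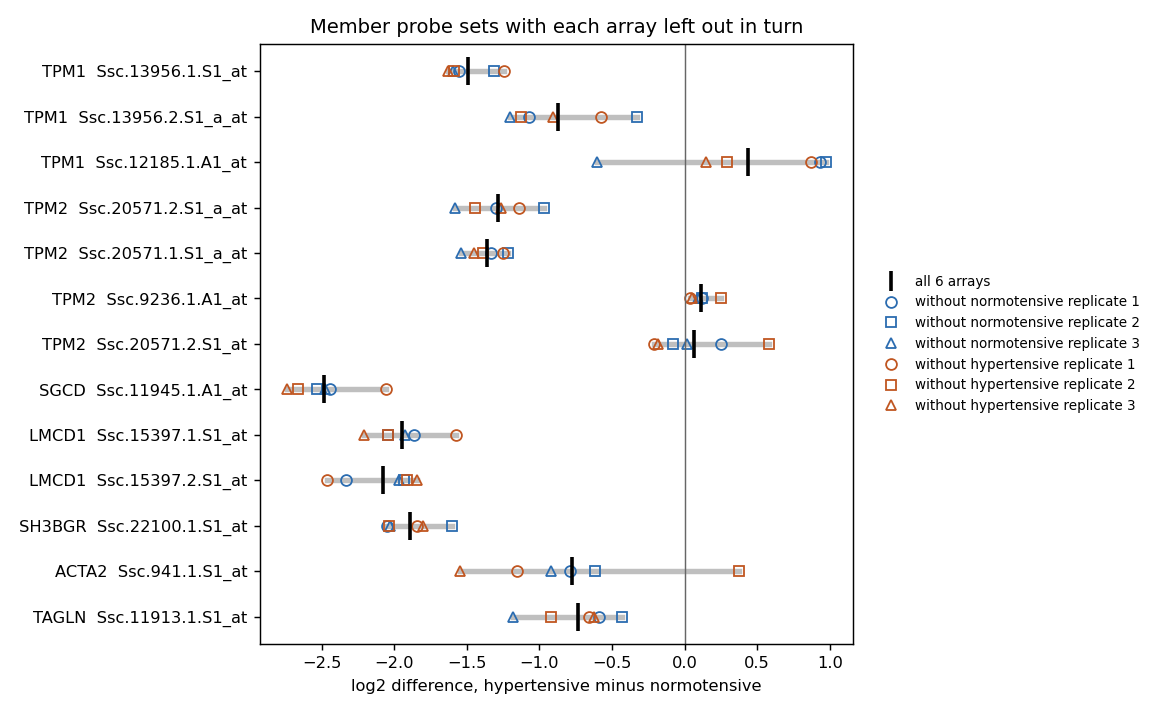
Log2 difference between pressures for each of the 13 probe sets with all 6 arrays (black bar) and with each array left out in turn (blue for normotensive, orange for hypertensive, marker shape for the replicate). The 7 probe sets with groups apart stay below 0 throughout, while ACTA2 runs from -1.55 to 0.38 and the TPM1 probe set Ssc.12185.1.A1_at from -0.61 to 0.98.

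Genes with profiles most like those of 3 members were sought among 6880 kept probe sets of other genes, by the root-mean-square difference of log2 signals over the 6 arrays after each was centred on its own mean. For the TPM1 probe set Ssc.13956.1.S1_at the nearest were EPDR1 at 0.14, the sorbitol dehydrogenase gene SORD at 0.15 and PAQR6 at 0.18. For SGCD they were RAB27B, a GTPase of secretory vesicles, at 0.12, the topoisomerase TOP2A at 0.22 and the kinetochore gene NDC80 at 0.24. RAB27B gave 379, 438 and 408 and then 41.3, 94.0 and 113, so that, as for SGCD, hypertensive replicate 1 was the lowest array. For ACTA2 no gene lay as near, and the first was the protease inhibitor SLPI at 0.37, which was also lowest on hypertensive replicate 2, at 163. Among the members themselves, the TPM1 probe set and Ssc.20571.1.S1_a_at of TPM2 differed by 0.18, SGCD and LMCD1 by 0.29, and ACTA2 and TAGLN by 1.39.

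Genes of the contractile apparatus and related genes were taken from 8 lists that hold none of the 7 genes, with the brightest kept probe set for each gene. The lists were chosen with earlier results of these data known, so their shares are given as description. Of 47 genes measured, 0 passed the adjusted threshold with limma (0.00% of all kept genes did) and 9 had an unadjusted p under 0.05, which is 19.1% beside 17.0% of the 5271 kept genes. The mean was lower at hypertensive pressure in 38 of the 47 and in 55.0% of all kept genes, and the median log2 difference was -0.29 beside -0.07. The groups lay apart in the lower direction in 7 of the 47, or 14.9%, beside 12.6% of all kept genes, and in the higher direction in 4, or 8.51%, beside 9.28%. The count of 38 lower means was 35 with quantile normalization and 32 with arrays shifted to a common median, where all kept genes had 53.9% and 50.6%. Without hypertensive replicate 2, 8 of the 47 genes kept there passed, 7 lower and 1 higher, a share of 17% beside 24.4% of all kept probe sets in that fit.

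The other tropomyosin genes differed little. TPM3 gave 9144 and 8309 as group means, with a log2 difference of -0.14 (SE 0.18) and overlapping groups. TPM4 gave 16023 and 14369, with a difference of -0.16 (SE 0.13), and all 3 hypertensive arrays lay below the normotensive ones. Differences from TPM1 and TPM2 were not tested. Of the other actins, the smooth muscle gamma-actin ACTG2 was at 4110 and 2629 (log2 -0.64, SE 0.34), with groups that overlapped. On hypertensive replicate 2, where ACTA2 was at 267, ACTG2 was at 3218, between the 1537 of replicate 1 and the 3675 of replicate 3. The cytoplasmic actins ACTB and ACTG1 had differences of 0.32 (SE 0.24) and -0.02 (SE 0.12), and that of ACTG1 turned to 0.04 when arrays were shifted to a common median.

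Among proteins that bind the thin filament, 8 of 9 measured genes had lower means, or 7 with arrays shifted to a common median, and the list median was -0.36. Caldesmon (CALD1), an actin-binding inhibitor of myosin, was at 7944 and 4404, with a log2 difference of -0.85 (SE 0.41). Its groups lay only just apart, with hypertensive replicate 2 at 7184 and normotensive replicate 1 at 7205. The difference was -0.34 without hypertensive replicate 1, the array at 2153. Smoothelin (SMTN), a smooth muscle marker, was at 1322 and 499 (log2 -1.40, SE 0.56). SMTN did not separate the groups, since hypertensive replicate 2 was at 1286 and replicates 1 and 3 at 305 and 318, and without replicate 2 the difference was -2.09. Tropomodulin TMOD1, which caps the slow end of tropomyosin-coated filaments, went the other way, from 565 to 1050 (log2 0.89, SE 0.29), with all 3 hypertensive arrays above the normotensive ones. The transgelin relatives TAGLN2 and TAGLN3 had overlapping groups, with TAGLN2 at 195 and 154 and TAGLN3 below the filter level in the mean. The TAGLN2 difference of -0.34 turned to 0.05 without hypertensive replicate 3, the array at 88.9.

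In the actomyosin list 7 of 8 genes had lower means, or 6 after the median shift, and the list median was -0.33. RHOA, the GTPase that switches on stress fibre assembly, was at 5802 and 3519 (log2 -0.72, SE 0.25), with groups that lay apart. PPP1CB and PPP1R12A, the catalytic and targeting subunits of myosin phosphatase, had groups apart, with small differences of -0.27 (SE 0.16) for PPP1CB and 0.18 (SE 0.19) for PPP1R12A. Another PPP1CB probe set differed in the opposite direction. In the LIM-domain and adhesion plaque list 14 of 16 genes had lower means, or 11 after the median shift, and the list median was -0.31. FHL1, a LIM protein of muscle, was at 5956 and 2276 (log2 -1.39, SE 0.54), and vinculin (VCL), which couples actin to adhesions, at 3899 and 2401 (log2 -0.70, SE 0.32), each with groups apart. Without hypertensive replicate 1 the FHL1 difference was -0.70 and the VCL difference -0.34. PDLIM3 had a difference of -1.60 (SE 0.83) that overlapped and ran from -2.62 without hypertensive replicate 2 to -0.93 without replicate 1.

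The dystrophin complex list had 4 of its 17 genes on the array with 1 symbol, and 2 of these were kept. Syntrophin SNTB1, an adaptor of the complex, was at 54.4 and 138 (log2 1.34, SE 0.48), higher on all 3 hypertensive arrays, at 240, 65.9 and 165, than on the normotensive arrays, at 48.0 to 60.4. Its normotensive level lay near the filter level, so its fold is uncertain. Caveolin CAV1 was at 7853 and 5265 (log2 -0.58, SE 0.32) with overlapping groups, and dystrophin itself (DMD) lay below the filter level in the mean. So did DTNB, at 36.5 and 6.80 (log2 -2.42, SE 0.88 from the fit without a filter) with overlapping groups, so the size of its difference is uncertain. No other sarcoglycan was analysed here, since none of the listed ones had a probe set with 1 symbol. In the list of SRF and GATA6 regulators 3 genes had higher and 3 lower means. GATA6, the partner of LMCD1, was at 919 and 532 (log2 -0.79, SE 0.29), and KLF4, known to repress smooth muscle genes, at 4802 and 9684 (log2 1.01, SE 0.35), each with groups apart. Myocardin (MYOCD) lay below the filter level in the mean. In the SH3BGR family SH3BGRL3 was at 137 and 94.3 (log2 -0.54, SE 0.47) with overlapping groups, and SH3BGRL2 lay below the filter level in the mean.

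**Figure D4:**
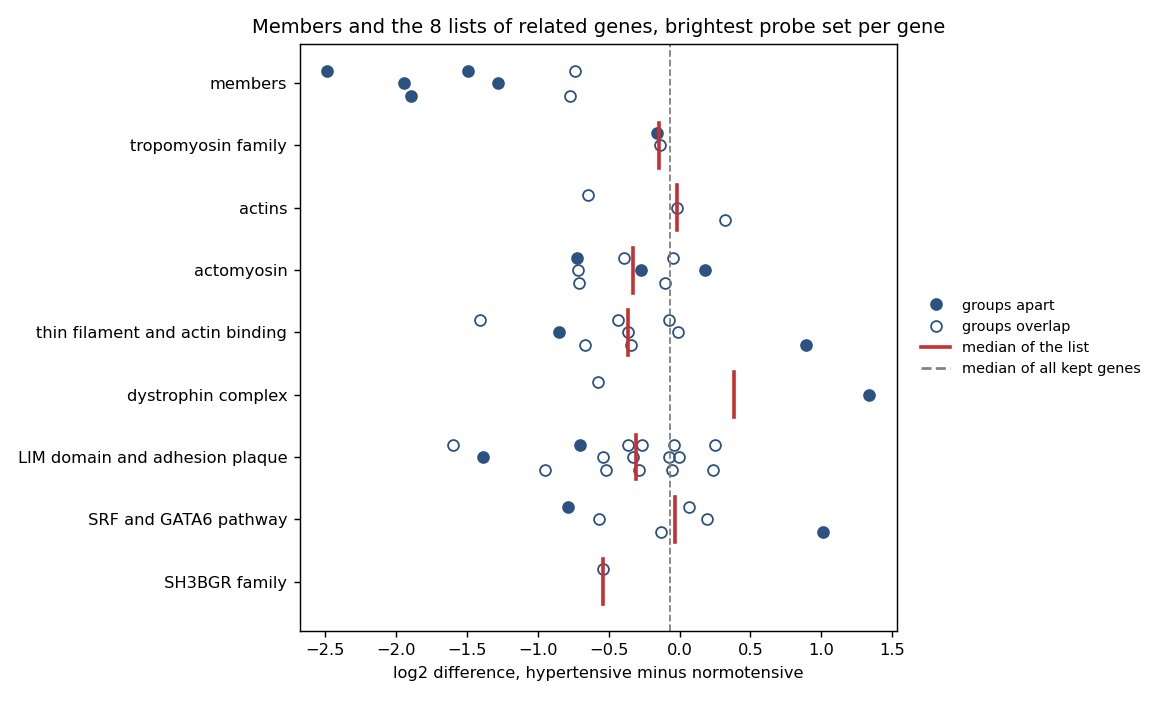
Log2 difference between pressures for the 7 genes (top row) and for the kept genes of the 8 lists, 1 point per gene from its brightest probe set, filled where the groups lie apart and open where they overlap. Red lines are list medians and the dashed line is the median of all 5271 kept genes at -0.07.

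Markers of other cells were read beside these values. Of the smooth muscle markers, 4 of 7 had a probe set; calponin CNN1 and desmin DES lay below the filter level in the mean, and ACTG2 and SMTN were the 2 kept. The summed signal of the 4 was 5413 to 5918 on the normotensive and 1902 to 4570 on the hypertensive arrays. That sum moved in the same direction as most member probe sets, and its part in their differences was not tested. Most of it came from ACTG2, at 3481 to 4820 on the normotensive arrays. In each of the 4 genes taken alone the groups overlapped, and DES had a higher hypertensive mean (log2 0.71). The summed signal of the 12 striated muscle markers was 276 to 362 and 239 to 400, which overlapped. Valve interstitial markers had lower means in 7 of 7 genes, where 55.0% of all kept genes had a lower mean. Their summed signals were 73899 to 74826 and 50960 to 64527, and lumican (LUM) and periostin (POSTN) had groups apart. The COL1A2 difference of -0.25 turned to 0.11 without normotensive replicate 2, and that of COL3A1 went from -1.02 to -0.22 without hypertensive replicate 1. The part of this lower level of interstitial markers in the members' differences was not tested either. Endothelial and leukocyte markers had summed signals that overlapped between the groups, at 2491 to 3057 and 2048 to 3923 for the 9 endothelial genes and at 1545 to 2740 and 608 to 2300 for the 5 leukocyte genes. These sums hide single markers whose groups lay apart in opposite directions. P-selectin (SELP) was higher at hypertensive pressure, at 128 and 872, as was VE-cadherin (CDH5), at 24.7 and 87.5 with all normotensive signals under 48.5, while ERG was lower, at 1504 and 963. Among the leukocyte markers PTPRC was lower, at 77.6 and 31.0, with the hypertensive mean below the filter level. CORO1A was higher, at 71.4 and 123, although another CORO1A probe set differed in the opposite direction. Their part in the members' differences was not tested. The summed signal of the red blood cell markers overlapped too, as did HBB, the 1 kept. ALAS2, below the filter level in the mean, was at 31.5 and 48.3, with all 3 hypertensive arrays above the normotensive ones.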

How the data were processed

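The authors deposited linear intensities for each probe set of the Affymetrix Porcine Genome Array, made with GCOS and MAS5 per the submitters' processing notes. Versions and settings were not given in the sources used here. Per the labels, 70 ng of total RNA was amplified in repeated rounds and 10 µg of cRNA hybridised. Scaling to a common level hides a change that moves most transcripts alike. Precision is limited by the 6 arrays, and no detection calls were used.

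Of 24123 probe sets, 124 controls were left out, and gene symbols came from the platform annotation, in which 10069 of the other 23999 had 1 symbol, 198 several and 13732 none. The annotation's gene identifiers of all 13 member probe sets matched the same symbol in RefSeq. Values were log2-transformed without a pseudocount, and limma 3.58.1 in R 4.3.3 (lmFit, eBayes with an intensity trend, 2-sided) was fitted to the 14399 kept probe sets, with Benjamini-Hochberg adjustment. Below the filter, SEs came from the fit without one. With 3 arrays per group the smallest p of an exact permutation test is 0.1, and no such test was run. In simulated data of the same 14399 probe sets, 200 probe sets were changed per run and noise was drawn independently for each probe set. There 0% of log2 changes of 1, 49.9% of changes of 2 and 92% of changes of 4 were recovered. The simulation held no differences that many probe sets of an array share, so these rates need not hold for the real arrays.

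The members and lists were chosen with earlier results of these data known. Named genes are all members, their family relatives, up to 3 genes per list (groups apart first, then by size of difference) and the 3 nearest profiles. Values given for ACTG2 on single arrays and for the marker lists' dim genes were chosen after they were seen. So were those for DCN, VIM, COL1A2, CDH5, DMD, DTNB, MYOCD and the ACTA2 gap. Alternatives were quantile normalization, a median shift, no filter, the 60th percentile, pseudocounts of 16 and 64, no trend, array weights, the replicate number as a block, each array left out, and the mean of a gene's probe sets.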

Additional observations from a re-analysis of the deposited data

How the results depend on the processing

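The count of 0 probe sets past the threshold held under quantile normalization, the median shift, no filter, the 60th percentile, both pseudocounts, no trend and the replicate block. With array weights 5639 probe sets passed (39.2% of those tested), and 19 of the 47 list genes (40.4%; 6 higher, 13 lower) did so; hypertensive replicates 2 and 1 had weights of 0.195 and 0.289 and normotensive replicate 1 one of 6.96. With each array left out the counts ran from 0 to 3513 probe sets and from 0 to 8 list genes; the highest came without hypertensive replicate 2, and 1 probe set passed without normotensive replicate 2. Without hypertensive replicate 2, 6 of the 10 member probe sets kept there passed, where 24.4% of all did, and with array weights 7 of 11, where 39.2% of all did. The members were chosen from this comparison, so these counts carry no separate weight, and the cause was not tested. The list genes gave 0 with the mean of a gene's probe sets too.

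With the replicate number as a block 0 probe sets and 0 list genes passed, and 2865 had an unadjusted p under 0.05 in place of 2436. Deviations of same-numbered arrays correlated at 0.0593, 0.072 and 0.226, so the numbers were not taken as pairs, although each hypertensive array correlated best with its own number.

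Of the 13 member differences, 3 changed sign under some alternative, namely ACTA2 (without hypertensive replicate 2 and with array weights, 0.45), TPM1 Ssc.12185.1.A1_at and TPM2 Ssc.20571.2.S1_at. The fold moved by over 1.5 times with 1 array left out in 2, ACTA2 and TPM1 Ssc.12185.1.A1_at. A pseudocount of 16 or 64 took LMCD1 Ssc.15397.2.S1_at to -1.03 or -0.44, and one of 64 took SH3BGR to -1.43. No scaling moved the median difference of all kept probe sets by more than 0.0585.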

Other observations

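The array carries 7 control probe sets named for pig actin, which were left out of the tests. AFFX-Ssc-actin-3_at and AFFX-Ssc-actin-5_at gave the actin ratio above. In all 7 the groups overlapped. The 3′ probe set, AFFX-Ssc-actin-3_at, gave 17524 to 19658 on the normotensive arrays and 17381 to 20535 on the hypertensive arrays. On hypertensive replicate 2, where ACTA2 was at 267, it was at 20535, the highest of the 6 arrays. The control AFFX-Ss_Actin_M_s_at was lowest on that array, at 24.0, and at 54.4 to 98.4 on the others. So was AFFX-Ss_Actin_5_s_at, at 48.3 against 101 to 133, and, by little, AFFX-Ssc-actin-M_at, at 4956 against 5057 to 7218. The remaining controls, AFFX-Ss_Actin_3_s_at, AFFX-Ssc-actin-5_at and AFFX-Ssc-actin-5_x_at, were lowest on other arrays.

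A gap as large as that of ACTA2, with 1 array that far below the other 5, was counted on each array after the ACTA2 value was seen. It was found in 39 kept probe sets for hypertensive replicate 1, in 5 for replicate 2 and in 8 for replicate 3. On the normotensive arrays it was found in 0, 10 and 2.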
